A study of Homo sapiens with 6 samples.

Results

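The genes described here are 33 genes of the p53 pathway, namely the p53 family member TP73, the p53 regulators MDM2, MDM4 and PPM1D, and genes known as targets of p53, out of 58735 genes measured. They are a list of gene names, drawn up with earlier results of these data known, and all 33 were found among the measured genes. RNA sequencing was performed in SK-N-AS, a neuroblastoma cell line of human origin with defective p53. The cells had received either an siRNA that targets Prp19 (siPrp19) or a control siRNA without a target (NC). Prp19, encoded by PRPF19, is a component of the spliceosome. There were 3 NC and 3 siPrp19 libraries, named a, b and c within each group, and per the labels the cells were collected at 72 h, whereas the methods of the study state a shorter time. Both groups are the same cell line, which limits the comparison to 1 line, and the methods of the study call the libraries biological replicates without saying how their cultures were kept apart. The labels do not mention separate cultures, so the p-values measure the spread between these libraries.

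p53 is a transcription factor that is kept at a low level by the ubiquitin ligase MDM2 and its partner MDM4, and that accumulates after DNA damage and other stress. It then switches on genes that halt the cell cycle, repair DNA, adjust metabolism or start cell death, and it also induces MDM2 and PPM1D, which act back on p53. In neuroblastoma the pathway is mostly intact at diagnosis, and many of its target genes are also driven by other transcription factors, so that they are transcribed in cells without working p53 as well.

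Groups were taken from the column name in each table. In 4 of the 6 tables this name was that of another library than the one the table is recorded under, and for NCb and siPrp19b the recorded sample belongs to the opposite group. PRPF19 was measured at 83.0, 83.1 and 93.0 FPKM (fragments per kilobase of exon, relative to the size of the library) in NCa, NCb and NCc, and at 19.6, 19.1 and 18.5 FPKM in siPrp19a, siPrp19b and siPrp19c, so the level of the targeted gene followed the column names. Its mean was 86.4 ± 5.78 FPKM in NC and 19.1 ± 0.573 FPKM in siPrp19 (SD, n = 3). The libraries held between 14887132 and 19977811 reads. NCa and NCb were close to each other, with a chi-square per degree of freedom of 1.74 over the tested genes, and so were siPrp19b and siPrp19c with 2.82, whereas values for the remaining 13 pairs lay between 20.99 and 55.13. Mitochondrial genes took 8.29% of the reads in siPrp19a and at most 5.49% in each of the other libraries. Of 9 adrenergic neuroblastoma markers, 8 had a mean above 1 FPKM, their summed level was 299 to 311 FPKM in NC and 224 to 242 FPKM in siPrp19, and TH was below 1 FPKM. Of 6 mesenchymal markers, 5 had a mean above 1 FPKM, with sums of 208 to 235 FPKM in NC and 167 to 194 FPKM in siPrp19. The blood marker PTPRC was at 24.9 to 30.7 FPKM in NC and fell to 16.9 to 20.4 FPKM in siPrp19 (log2 fold change -0.63, adjusted p = 0.0202), whereas CD3E and HBB were at 0 in every library and all 3 epithelial markers were below 1 FPKM. The part of these differences between the groups in the results was not tested.

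To see whether p53 genes responded to the knockdown, log2(FPKM + 1) was compared between siPrp19 and NC with limma over the 13718 genes with a mean of at least 1 FPKM, and a gene passed when its Benjamini-Hochberg adjusted p was below 0.05. Of the 33 genes, 28 could be tested, and 2 rose, CDKN1A and BTG2. None of the 28 fell past the threshold. Over all tested genes 7.94% passed, 2.57% as higher and 5.37% as lower in siPrp19, so the 2 of 28 genes stood near the background. The median log2 fold change was -0.01 for the 28 genes and -0.02 for all tested genes. Of all calls 32.4% were higher in siPrp19, against 46.1% with quantile normalization. The share was 54.5% with voom, which models read counts within limma and was applied to the reads recovered from the FPKM values, and which differs in its values and weights as well as in its scaling. Both alternatives also left CDKN1A and BTG2 past the threshold as higher.

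**Figure D1:**
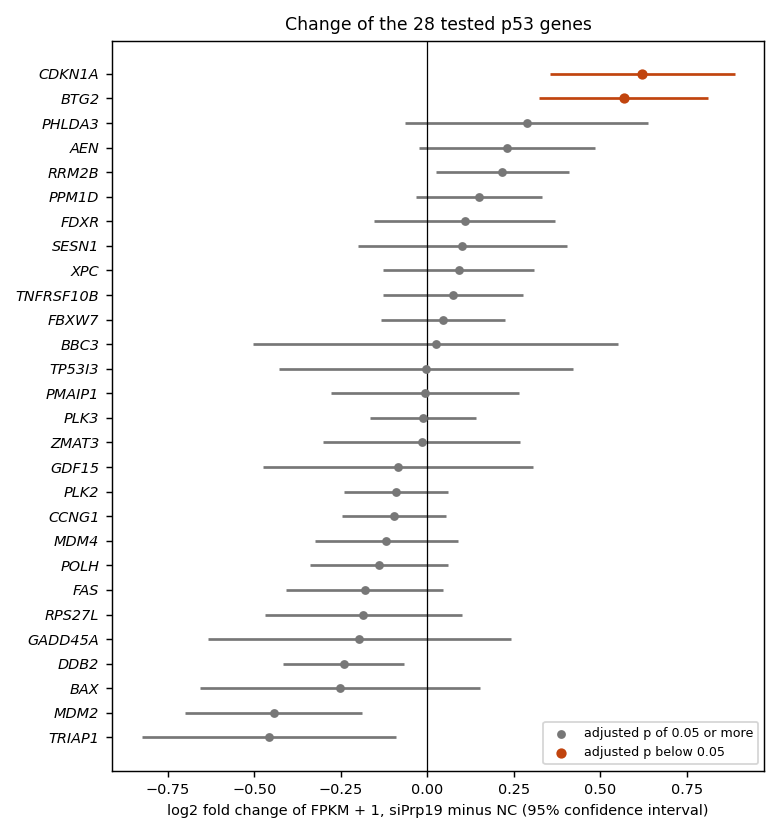
Difference between siPrp19 and NC for the 28 tested p53 genes, as log2 fold change of FPKM + 1 with its 95% confidence interval from limma (n = 3 libraries per group). CDKN1A and BTG2, in orange, lie at 0.62 and 0.57 and have an adjusted p below 0.05, and the other 26 genes, in grey, do not.

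CDKN1A (ENSG00000124762, chromosome 6, 36676460 to 36687339 on the plus strand, GRCh38) encodes p21, the inhibitor of cyclin-dependent kinases through which p53 halts the cell cycle. It was measured at 15.1, 14.9 and 16.0 FPKM in NCa, NCb and NCc and at 20.4, 24.6 and 28.0 FPKM in siPrp19a, siPrp19b and siPrp19c. Every siPrp19 library was above every NC library, with the lowest value of the group in siPrp19a. The log2 fold change was 0.62 (SE 0.113, 95% confidence interval 0.35 to 0.89, adjusted p = 0.0216), and the ratio of the mean FPKM was 1.59.

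BTG2 (ENSG00000159388, chromosome 1, 203305491 to 203309602, plus strand) encodes an antiproliferative protein that recruits the mRNA deadenylase complex. Its level was low, at 1.05, 1.43 and 1.37 FPKM in NCa, NCb and NCc against 2.27, 2.53 and 2.33 FPKM in siPrp19a, siPrp19b and siPrp19c. The groups did not overlap, and the gene was counted with 46 to 135 reads per library. On the log2(FPKM + 1) scale it rose by 0.57 (SE 0.104, adjusted p = 0.0219). This understates the change of so low a gene, since the mean FPKM was 1.85 times that of NC. The log2 fold change from voom, which also differs in its scaling, was 0.97.

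Both calls held without NCc (adjusted p = 0.0361 and 0.032 for CDKN1A and BTG2) and without siPrp19a (0.0115 and 0.0429). They were lost in the 4 libraries whose column name and recorded sample give the same group (NCa, NCc, siPrp19a and siPrp19c), where the adjusted p was 0.269 for CDKN1A and 0.242 for BTG2 with log2 fold changes of 0.59 and 0.58, and where 0.0146% of all tested genes passed. They were also lost without NCa (adjusted p = 0.087 and 0.0819 for CDKN1A and BTG2), without NCb (0.0846 and 0.0622), without siPrp19b (0.0938 and 0.101) and without siPrp19c (0.072 and 0.0912), when each close pair was averaged to 1 library (0.25 and 0.223), and when genes below 1 FPKM were tested too (0.0695 and 0.0722). When libraries were grouped by the samples they are recorded under, 0% of the tested genes passed, and the log2 fold changes were 0.16 for CDKN1A and 0.21 for BTG2.

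The sequence just upstream of both genes that rose is shown with its GC boxes, and it held none of the p53 pairs described further on. It is the 250 bases before the RefSeq start site on GRCh38.p14, chr6:36678464-36678713 for CDKN1A and chr1:203305269-203305518 for BTG2, both on the plus strand. Capitals mark GC boxes, searched as GGGCGG on both strands, of which CDKN1A held 4 with 1 overlapping pair and BTG2 held 3.
CDKN1A: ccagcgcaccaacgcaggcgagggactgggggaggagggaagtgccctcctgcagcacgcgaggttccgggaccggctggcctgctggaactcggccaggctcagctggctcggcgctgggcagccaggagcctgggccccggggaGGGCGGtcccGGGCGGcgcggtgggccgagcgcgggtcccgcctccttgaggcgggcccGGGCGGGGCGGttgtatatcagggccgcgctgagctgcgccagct
BTG2: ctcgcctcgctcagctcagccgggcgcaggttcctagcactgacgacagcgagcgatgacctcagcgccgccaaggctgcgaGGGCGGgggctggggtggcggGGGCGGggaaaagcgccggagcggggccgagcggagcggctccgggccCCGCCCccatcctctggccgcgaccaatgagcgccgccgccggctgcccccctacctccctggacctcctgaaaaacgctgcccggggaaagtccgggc
A GC box is common, and 42.6% of all RefSeq start sites held one in the same window.

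Among the regulators of p53, MDM2 had the largest difference. MDM2 (ENSG00000135679, chromosome 12, 68808176 to 68850686, plus strand) is both the ligase that degrades p53 and one of its best known targets. It was measured at 3.56, 3.29 and 3.33 FPKM in NCa, NCb and NCc and at 2.73, 1.96 and 2.05 FPKM in siPrp19a, siPrp19b and siPrp19c. All 3 siPrp19 libraries were below all 3 NC libraries, the mean being 0.662 times that of NC. The log2 fold change of -0.44 (SE 0.108, 95% confidence interval -0.70 to -0.19) missed the threshold with an adjusted p of 0.0537. It passed with quantile normalization (adjusted p = 0.0498), with voom (0.0232) and without siPrp19a (0.0207), whereas it was 0.385 in the 4 libraries. MDM2 also missed the threshold without NCa (0.177), NCb (0.14), NCc (0.08), siPrp19b (0.18) and siPrp19c (0.176). With the library sums made equal the adjusted p was 0.0804, with no filter on low values 0.15 and with close pairs averaged 0.389. The log2 fold change was below 0 in each of these fits, and was -0.087 with the recorded groups.

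MDM4, which holds p53 inactive together with MDM2, was measured at 8.49, 8.27 and 10.0 FPKM in NC and 8.20, 7.66 and 8.49 FPKM in siPrp19 (libraries a, b and c), and the groups overlapped. PPM1D, a phosphatase that removes activating phosphates from p53 and its kinases, was at 5.30, 5.47 and 5.59 FPKM in NC and 6.80, 5.81 and 5.90 FPKM in siPrp19. The groups of PPM1D did not overlap, but its log2 fold change of 0.15 (SE 0.0769) had an adjusted p of 0.294. TP73, the p53 relative that can activate the same genes, had 0 to 7 reads per library and at most 0.0602 FPKM, so that a difference was not detectable at this depth. FBXW7, a substrate receptor of a ubiquitin ligase for cyclin E and MYC, was at 4.42 to 5.01 FPKM in NC and 4.80 to 5.28 FPKM in siPrp19.

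A p53 response element consists of a pair of 10-base motifs, and such a pair was looked for in the RefSeq promoter windows (250 bases before to 50 after each start site, GRCh38.p14) of the genes. Both motifs were the p53 consensus, with at most 1 base between them and at most 2 mismatches in all, none of them in the central C and G, and the consensus reads alike on both strands. Windows were held for 28 of the 33 genes with 45 start sites in all, and not for TP53INP1, TNFRSF10B, GADD45A, PHLDA3 and RRM2B. A pair stood in the windows of 6 of these 45 start sites, which belong to the 5 genes MDM2, DDB2, FAS, AEN and TP73. Over all 35116 start sites a pair stood in 187 (0.533%). Neighbouring start sites of MDM2 hold the same pair, which is counted for each of them. Most of the genes were listed as known p53 targets, so setting these shares side by side is no test. The search was chosen after values were seen, and MDM2, DDB2, FAS and AEN missed the threshold in the comparison of all 6 libraries. TP73 was not tested. MDM2 and DDB2 were lower than NC in every siPrp19 library, and AEN was higher only in siPrp19b and siPrp19c. All matches are shown, with capitals marking the pair on the plus strand. They lie at chr12:68808918-68808947 for MDM2, chr11:47214975-47215004 for DDB2, chr10:88991304-88991333 for FAS, chr15:88621301-88621330 for AEN and chr1:3690591-3690620 for TP73.
MDM2: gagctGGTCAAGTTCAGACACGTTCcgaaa
DDB2: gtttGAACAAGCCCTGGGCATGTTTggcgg
FAS: ctcctGGACAAGCCCTGACAAGCCAagcca
AEN: gagccGGGCTTGCCCGGGCATGTGGgagct
TP73: tcaccGGGCAAGCTGAGGCCTGCCCcggac
The pair of DDB2 had 0 mismatches and a gap of 1 base. The windows of CDKN1A and BTG2 held no such pair, which says only that these letters are not in these windows. A match is a description and not a bound site.

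**Figure D2:**
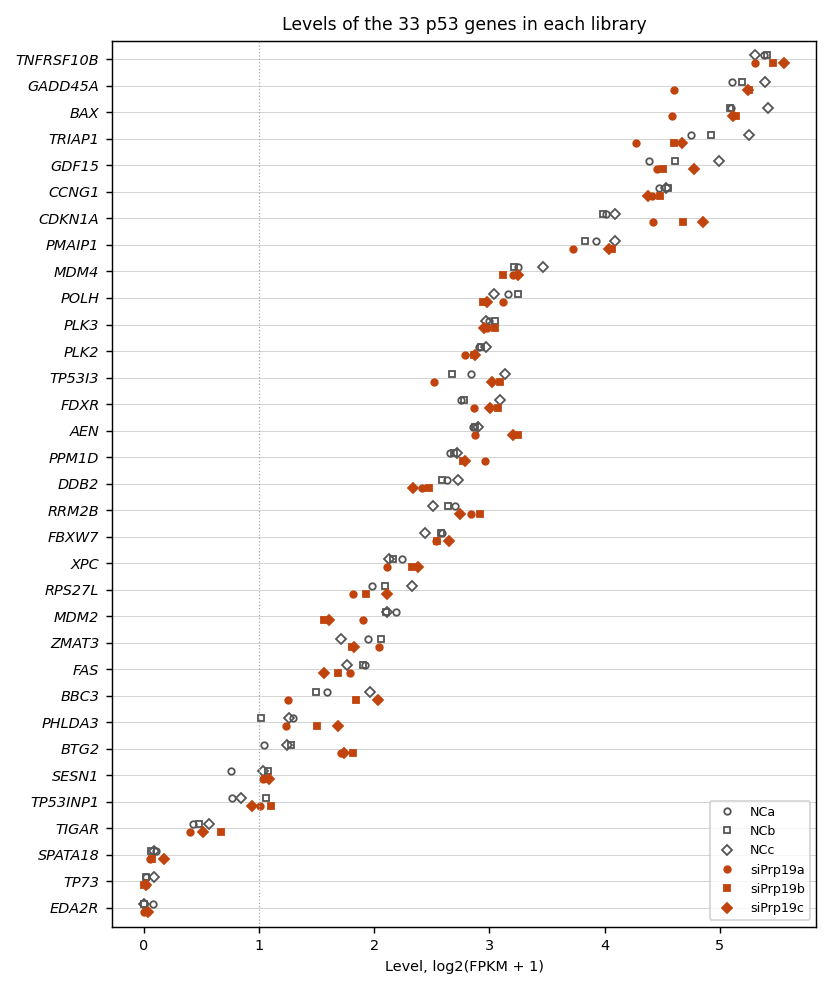
Level of each of the 33 p53 genes as log2(FPKM + 1) in the 3 NC libraries (open grey symbols) and the 3 siPrp19 libraries (filled orange symbols), ordered by the NC mean. CDKN1A and BTG2 in siPrp19 lie to the right of NC, MDM2 to the left, and the 5 genes at the bottom, left of the dotted line at 1 FPKM in their mean, were not tested.

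Genes of DNA repair and nucleotide supply had log2 fold changes on both sides of 0, and none passed the threshold. DDB2, a damage sensor of nucleotide excision repair, was at 5.18, 5.03 and 5.60 FPKM in NCa, NCb and NCc and 4.32, 4.55 and 4.05 FPKM in siPrp19a, siPrp19b and siPrp19c, with a log2 fold change of -0.24 (SE 0.0741, adjusted p = 0.102). RRM2B, the p53-inducible subunit of ribonucleotide reductase, was at 5.49, 5.23 and 4.71 FPKM in NC and 6.15, 6.55 and 5.71 FPKM in siPrp19, with a log2 fold change of 0.22 (SE 0.0813, adjusted p = 0.164). Neither gene had overlapping groups, and their directions were opposite. XPC, the partner of DDB2 in damage recognition, was at 3.38 to 3.73 FPKM in NC and 3.31 to 4.19 FPKM in siPrp19. POLH, a polymerase that copies past ultraviolet damage, was at 7.23 to 8.50 FPKM in NC and 6.67 to 7.69 FPKM in siPrp19. GADD45A, a stress protein with roles in repair and arrest, was at 33.4, 35.6 and 41.0 FPKM in NC and 23.3, 37.2 and 37.0 FPKM in siPrp19, and siPrp19a alone of its group was below the NC range.

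Genes of cell death gave no call in the comparison of all 6 libraries. BAX, which permeabilises mitochondria, was at 33.3, 32.9 and 41.9 FPKM in NCa, NCb and NCc and 23.0, 34.4 and 33.7 FPKM in siPrp19a, siPrp19b and siPrp19c, with a log2 fold change of -0.25 (SE 0.171, adjusted p = 0.429). BBC3, which encodes the BH3-only protein PUMA, was at 2.01, 1.81 and 2.91 FPKM in NC and 1.37, 2.57 and 3.10 FPKM in siPrp19. PMAIP1, which encodes the BH3-only protein NOXA, was at 14.2, 13.3 and 16.0 FPKM in NC and 12.2, 15.7 and 15.4 FPKM in siPrp19. For BAX, BBC3 and PMAIP1 alike, siPrp19a had the lowest value of the 6 libraries and NCc was the highest of the NC group.

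The death receptor TNFRSF10B had the highest NC mean FPKM, a level per exon length, of the 33 genes, 40.3 ± 1.52 FPKM (SD, n = 3), against 42.6 ± 3.90 FPKM in siPrp19. The receptor FAS was at 2.78, 2.73 and 2.39 FPKM in NC and 2.46, 2.21 and 1.96 FPKM in siPrp19, a log2 fold change of -0.18 (SE 0.0959, adjusted p = 0.312). AEN, an exonuclease that takes part in DNA fragmentation, was at 6.27, 6.31 and 6.48 FPKM in NC and 6.32, 8.49 and 8.24 FPKM in siPrp19. Both siPrp19b and siPrp19c exceeded NC for AEN while siPrp19a did not. The log2 fold change of AEN was 0.23 (SE 0.107, adjusted p = 0.251) with all libraries and 0.35 without siPrp19a, where it passed the threshold (adjusted p = 0.0307) as 1 of 4 of the genes, in a fit in which 7.53% of all tested genes passed.

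TRIAP1, a mitochondrial protein that restrains apoptosis, was at 25.9, 29.3 and 37.1 FPKM in NCa, NCb and NCc and 18.4, 23.2 and 24.5 FPKM in siPrp19a, siPrp19b and siPrp19c. The groups did not overlap, but the spread within NC was wide, and the log2 fold change of -0.46 (SE 0.155) had an adjusted p of 0.13. PHLDA3, an inhibitor of AKT, was at 1.45, 1.02 and 1.39 FPKM in NC and 1.35, 1.83 and 2.22 FPKM in siPrp19, a log2 fold change of 0.29 (SE 0.148, adjusted p = 0.299). TP53I3, a quinone oxidoreductase linked to oxidative stress, had a mean of 6.44 ± 1.22 FPKM in NC and 6.46 ± 1.51 FPKM in siPrp19 (SD, n = 3). EDA2R, a receptor of the tumor necrosis factor family, had 0 to 3 reads per library and SPATA18, a regulator of mitochondrial quality, had 3 to 13 reads. Neither of EDA2R and SPATA18 reached the level at which genes were tested.

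**Figure D3:**
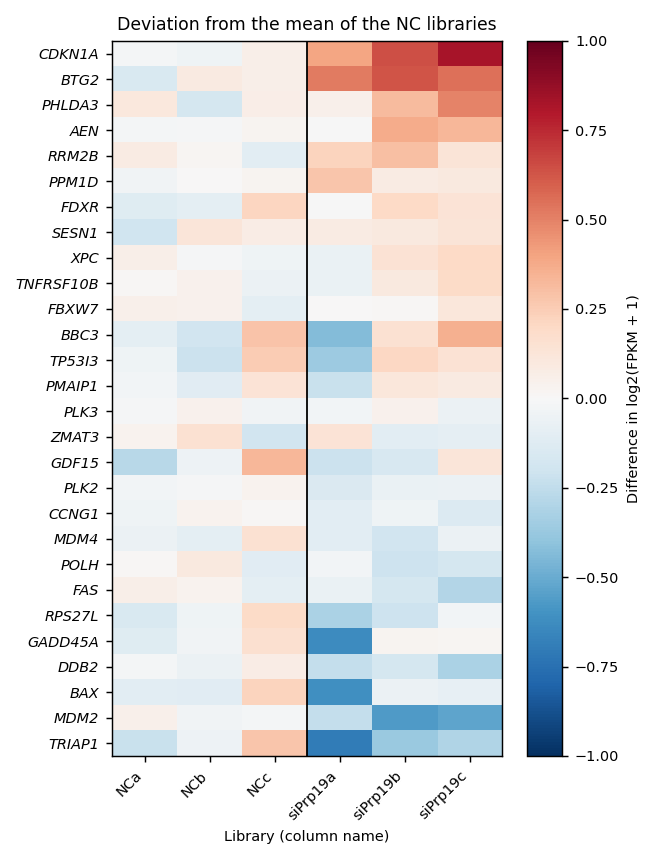
Difference of each library from the mean of the 3 NC libraries, in log2(FPKM + 1), for the 28 tested p53 genes ordered by their log2 fold change (red, higher, and blue, lower). CDKN1A and BTG2 are red in all 3 siPrp19 libraries, whereas GADD45A, BAX, BBC3 and TP53I3 are a deeper blue in siPrp19a than in any other library.

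Of the genes of metabolism and secreted stress signals, none passed the threshold. The sestrin SESN1, which restrains mTORC1, was at 0.691 to 1.11 FPKM in NC and 1.05 to 1.12 FPKM in siPrp19. FDXR, the mitochondrial ferredoxin reductase, was at 5.74 to 7.53 FPKM in NC and 6.30 to 7.41 FPKM in siPrp19. GDF15, a secreted stress cytokine, was at 19.9, 23.5 and 30.8 FPKM in NC and 20.9, 21.7 and 26.5 FPKM in siPrp19. TIGAR, a phosphatase that lowers glycolytic flux, was at 0.315 to 0.588 FPKM over all libraries, and TP53INP1, a stress protein with a role in autophagy, at 0.701 to 1.15 FPKM. Both TIGAR and TP53INP1 had a mean below 1 FPKM and were not tested.

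Of the polo-like kinases, PLK2, which acts in centriole duplication, was at 6.52, 6.58 and 6.85 FPKM in NC and 5.92, 6.30 and 6.35 FPKM in siPrp19, without overlap but with a log2 fold change of only -0.09 (SE 0.0636, adjusted p = 0.45). PLK3, a stress-responsive kinase, was at 6.85 to 7.29 FPKM in NC and 6.72 to 7.28 FPKM in siPrp19. CCNG1, a cyclin that binds protein phosphatase 2A and MDM2, was at 21.2 to 22.4 FPKM in NC and 19.8 to 21.3 FPKM in siPrp19. ZMAT3, an RNA-binding protein, was at 2.28 to 3.17 FPKM in NC and 2.49 to 3.12 FPKM in siPrp19. RPS27L, a ribosomal protein paralog, was at 2.95 to 4.02 FPKM in NC and 2.52 to 3.31 FPKM in siPrp19, and its reads could be shared with its near copy RPS27.

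Counted by overlap alone, 4 of the 28 tested genes had all siPrp19 libraries above all NC libraries (CDKN1A, BTG2, RRM2B and PPM1D), beside 13.2% of all tested genes. A further 4 had all siPrp19 libraries below NC (MDM2, TRIAP1, DDB2 and PLK2), beside 18.1%. Both shares of the p53 genes were near those of all genes. The library siPrp19a was the lowest of the 6 for 10 of the 28 genes (35.7%, against 24.7% of all tested genes) and the highest for 1 (3.57%, against 21.4%). NCc was the highest for 11 of them (39.3%, against 28.6%) and the lowest for 3 (10.7%, against 22.8%). The library siPrp19c was the highest for 7 (25%, against 10.8%) and the lowest for 4 (14.3%, against 14.0%). The median absolute log2 difference over the 28 genes was 0.08 within both close pairs of libraries and 0.14 to 0.25 in the other 13 pairs. Within NC, NCc differed from NCa by 0.16, as much as NCa from siPrp19c.

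**Figure D4:**
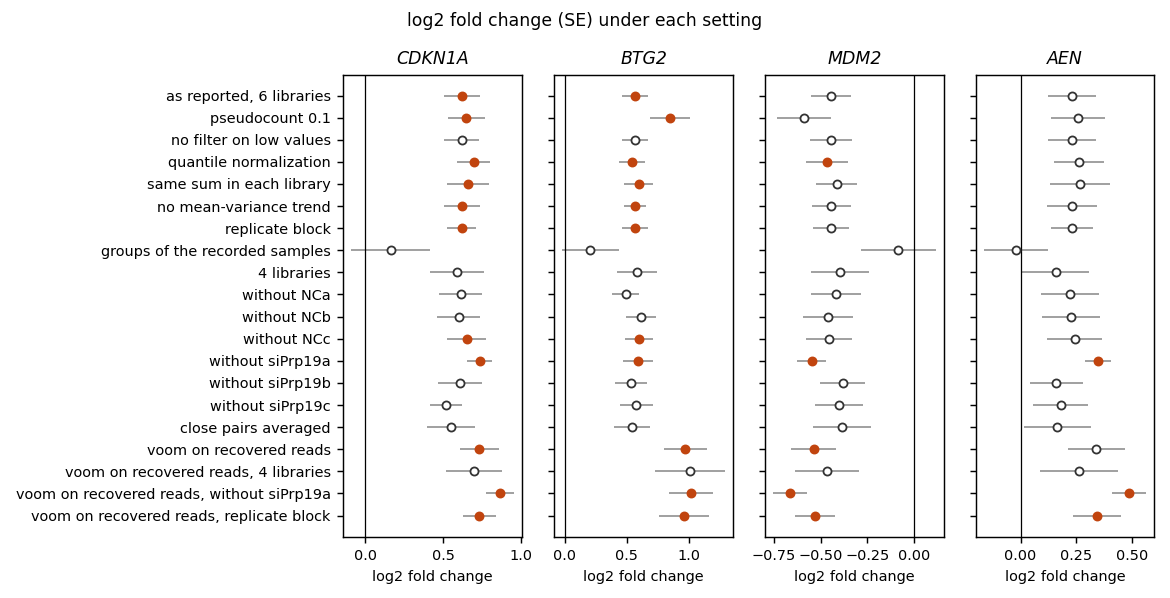
log2 fold change with its SE for CDKN1A, BTG2, MDM2 and AEN under each way of fitting, filled orange where the adjusted p was below 0.05 and open where it was not. CDKN1A and BTG2 stay above 0 and MDM2 below 0 in every fit shown, whereas AEN is at -0.02 with the recorded groups, and none of the 4 passes in the 4 libraries.

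With voom on the recovered reads, 3 of the 28 genes passed, in a fit in which 9.99% of all tested genes passed. These were CDKN1A with a log2 fold change of 0.73 (adjusted p = 0.00721), BTG2 with 0.97 (0.00903) and MDM2 with -0.54 (0.0232). Here too siPrp19a mattered for the genes beyond CDKN1A and BTG2, since without it AEN (0.49) and PHLDA3 (0.76) passed as well, 5 of the 28 genes in a fit in which 11.2% of all tested genes passed. The log2 fold change of MDM2 was then -0.66, while in the 4 libraries no p53 gene passed with voom.

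The genes around p53 were examined in 3 further lists. Of 79 other p53 targets, 62 could be tested, of which 4 rose and 4 fell, 12.9% of them against 7.94% of all tested genes. The rises were SESN2, a sestrin that is also induced by amino acid and endoplasmic reticulum stress (0.63, adjusted p = 0.0141), TAP1, a peptide transporter of antigen presentation (0.49, adjusted p = 0.0148), the zinc finger gene ZNF219 (0.31, adjusted p = 0.042) and the carboxylesterase CES2 (0.29, adjusted p = 0.0457). The falls were the growth factor PGF (-0.86, adjusted p = 0.0236), the autophagy regulator DRAM1 (-0.58, adjusted p = 0.00693), the hydrolase CMBL (-0.55, adjusted p = 0.0205) and the nucleoside triphosphatase NTPCR (-0.37, adjusted p = 0.0181). The median log2 fold change of the 62 genes was 0.02. Of the 62 genes, 2 passed without NCa, 2 without NCb, 1 without siPrp19b, 1 without siPrp19c and 0 in the 4 libraries. In the same fits 264, 335, 270, 253 and 2 of all 13718 tested genes passed. For SESN2 the level was 3.95, 5.13 and 4.88 FPKM in NCa, NCb and NCc and 7.19, 8.02 and 7.90 FPKM in siPrp19a, siPrp19b and siPrp19c, an increase unlike the values of its paralog SESN1 given above, though the difference between the paralogs was not tested.

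Of 25 genes that regulate p53, 24 could be tested with limma and 0 passed, against 7.94% of all tested genes, and voom called 0 as well. The unadjusted p from limma was below 0.05 for 2 of the 24 genes, beside 3240 of all 13718 tested genes. These 2 were PPP1R13L, an inhibitor of p53 also called iASPP (log2 fold change 0.20, adjusted p = 0.135), and TWIST1, a transcription factor that represses p53 function (-0.40, adjusted p = 0.149). CDKN2A, whose ARF product blocks MDM2, was at 8.24, 8.58 and 12.1 FPKM in NC and 7.06, 8.62 and 7.74 FPKM in siPrp19.

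The third list held 15 cell cycle genes known to be lowered by p53 through p21 and the DREAM repressor complex. All 15 had a level at which genes were tested. Any part of p53, p21 or DREAM in their differences between the groups was not tested. Of the 15 genes, 8 fell (53.3%, against 5.37% of all tested genes) and 0 rose. BIRC5 (-0.93, adjusted p = 0.00668), CDC20 (-0.69, adjusted p = 0.00649), CCNB1 (-0.59, adjusted p = 0.00985), CDK1 (-0.48, adjusted p = 0.0111) and AURKA (-0.42, adjusted p = 0.0152) had the largest falls among the genes past the threshold, and PLK1, CCNB2 and MYBL2 fell by less. BIRC5, the apoptosis inhibitor survivin, was at 62.8, 60.4 and 71.2 FPKM in NCa, NCb and NCc and at 28.8, 36.4 and 35.5 FPKM in siPrp19a, siPrp19b and siPrp19c. CDK1, the kinase of entry into mitosis, was at 35.2, 36.6 and 39.7 FPKM in NC and 26.3, 26.6 and 26.0 FPKM in siPrp19. All 15 genes had a log2 fold change below 0, with a median of -0.40 against -0.02 over all tested genes. For 13 of the 15 genes all siPrp19 libraries were below all NC libraries, beside 18.1% of all tested genes. In the 4 libraries 0 of the 15 passed with limma on log2(FPKM + 1) and 2 passed with voom, and 4, 3, 3 and 2 passed without NCa, NCb, siPrp19b and siPrp19c. Of all 13718 tested genes, 2 passed with limma and 266 with voom in the 4 libraries. Without NCa, NCb, siPrp19b and siPrp19c, 264, 335, 270 and 253 of all tested genes passed.

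**Figure D5:**
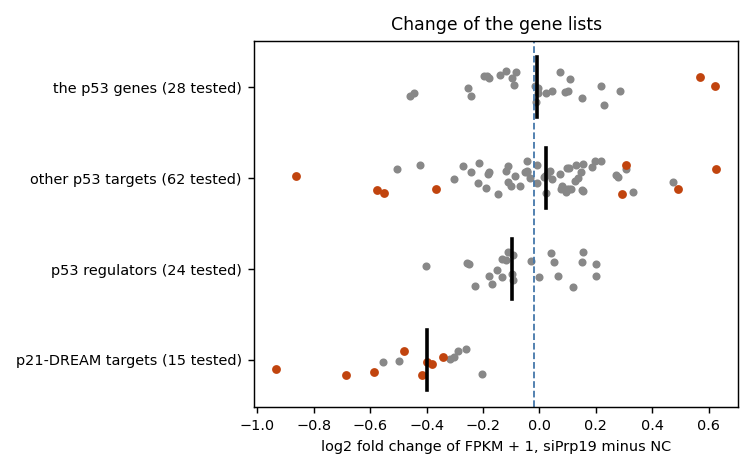
log2 fold change of each tested gene in the 4 lists, with orange for an adjusted p below 0.05, a black bar for the median of the list and a dashed line for the median of all tested genes, -0.02. The medians of the 28 tested p53 genes and of the 62 tested other p53 targets lie at -0.01 and 0.02, and that of the p21-DREAM targets at -0.40.

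Some of the p53 genes share bases with a neighbour that was itself measured above 1 FPKM in NC, and whether reads were counted by strand was not given in the sources used here. These were FAS with ACTA2, POLH with GTPBP2, TNFRSF10B with RHOBTB2, XPC with LSM3, PLK3 with DYNLT4, TP53I3 with FAM228B and TP73 with TP73-AS1, all on opposite strands. The antisense neighbour of CDKN1A, DINOL, was at 0 FPKM in NC, and the neighbour CPM of MDM2 was at 0.596 FPKM in NC. Neighbours were screened by their level in NC only, and the part of their reads in the values was not tested.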

How the data were processed

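Per the labels and the study's methods, RNA of SK-N-AS cells was sequenced, and the authors deposited 1 table of FPKM values per library. The submitters' processing notes name HISAT2 2.0.5, featureCounts 1.5.0-p3 and hg38. The annotation, strand setting and scaling between libraries were not given in the sources used here. All 58735 identifiers were matched to GENCODE, whose merged exon lengths on GRCh38 turned 100% of the FPKM values into whole reads within a tolerance of 0.01. The ratio of these reads to the depth that the FPKM values imply was 1.01, 1.01 and 1.04 in NCa, NCb and NCc. It was 0.989, 0.961 and 0.951 in siPrp19a, siPrp19b and siPrp19c. The scaling of the FPKM values thus differed between the groups and set siPrp19 lower relative to NC. Over all tested genes the median log2 fold change was -0.02 on log2(FPKM + 1) and 0.05 with voom. The part of this scaling in the fold changes was not tested.

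Columns NCa to NCc were compared with siPrp19a to siPrp19c (3 against 3) by limma 3.58.1 in R 4.3.3, on log2(FPKM + 1) with a mean-variance trend, for genes with a mean of at least 1 FPKM. Log2 fold changes understate the change of low genes. Calls used an adjusted p below 0.05 (Benjamini-Hochberg, all tested genes). The scripts were tested on simulated data with larger changes than those of CDKN1A and BTG2 and without close pairs of libraries. That test says nothing about calls of this size in these libraries. All 33 genes are named, and from each further list at most the 5 largest rises and 5 largest falls past the threshold. CDKN2A, TWIST1, PPP1R13L and the search for p53 pairs were chosen after values were seen. The 33 genes and the lists were chosen with earlier results of these data known, so they are no independent support. Alternatives were a pseudocount of 0.1, no filter, quantile normalization, equal sums, no trend, a replicate block, the recorded groups, 4 libraries, averaged close pairs, leaving out each library, and voom. Voom with 4 libraries, without siPrp19a or with a block was added after seeing the data. Python 3.11.15, numpy 2.4.6, pandas 2.3.3 and matplotlib 3.10.9 were used.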

Additional observations from a re-analysis of the deposited data

How the results depend on the processing

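Under the alternatives 950 values were computed again. Of these, 686 gave the reported direction and call, or a count within 1.5 times of the reported one, 151 lost and 12 gained a call, 45 counts moved further and 56 turned direction. None of the named genes with a call in the 6-library comparison turned direction.

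All tested genes gave 1089 calls. The count was 512 with no filter on low values (132 higher and 380 lower), 679 with equal sums, 0 with the recorded groups (191 at an unadjusted p below 0.05), 2 in the 4 libraries, 2 with close pairs averaged, 266 with voom in the 4 libraries and 2366 with voom and the replicate block. Leaving out 1 library gave 253 to 1354, with 264 without NCa, 335 without NCb, 270 without siPrp19b and 253 without siPrp19c. Calls among the 33 p53 genes were 0 with no filter, the recorded groups, the 4 libraries, averaged pairs and voom in the 4 libraries, 6 with voom and the block, 5 with voom without siPrp19a, and 0 to 4 when 1 library was left out. Of the other p53 targets, 4 passed with no filter and with equal sums, 0 with the recorded groups, the 4 libraries and averaged pairs, 3 with voom in the 4 libraries, 16 with voom and the block, 13 with voom without siPrp19a, and 1 to 9 without 1 library. Of the p21-DREAM targets, 0 passed with the recorded groups, the 4 libraries and averaged pairs, 2 with voom in the 4 libraries, and 2 to 10 without 1 library. Of the p53 regulators, 2 passed with voom and the block and 0 to 2 without 1 library, the 2 without NCc. The cause of these moves was not tested, other than that fewer libraries entered the smaller fits.

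No gene whose log2 fold change turned direction had a call in the 6-library comparison. With quantile normalization they were 0.012 for GDF15, 0.064 for PMAIP1, 0.019 for PLK3 and 0.028 for TP53I3. With equal sums they were 0.034 for PMAIP1, 0.024 for PLK3, 0.035 for TP53I3 and 0.012 for ZMAT3. With the recorded groups they were 0.067 for POLH, -0.088 for FDXR, -0.020 for AEN, -0.016 for XPC, 0.16 for ZMAT3, -0.21 for BBC3 and -0.041 for PHLDA3. In the 4 libraries they were 0.10 for ZMAT3 and -0.14 for BBC3. With averaged pairs they were 0.070 for ZMAT3 and -0.16 for BBC3. With voom they were 0.070 for PMAIP1, 0.062 for PLK3, 0.070 for TP53I3 and 0.059 for ZMAT3. With voom in the 4 libraries they were 0.0070 for GDF15, 0.019 for POLH, 0.059 for PLK3, 0.22 for ZMAT3 and -0.10 for BBC3. With voom without siPrp19a they were 0.11 for GADD45A, 0.018 for BAX, 0.072 for GDF15, 0.20 for PMAIP1, 0.085 for PLK3, 0.021 for PLK2 and 0.28 for TP53I3. With voom and the block they were 0.071 for PMAIP1, 0.062 for PLK3, 0.077 for TP53I3 and 0.058 for ZMAT3. Leaving out 1 library at a time gave -0.14 to 0.25 for BBC3, -0.0029 to 0.071 for FBXW7, -0.31 to 0.021 for GADD45A, -0.22 to 0.080 for GDF15, -0.042 to 0.010 for PLK3, -0.068 to 0.10 for PMAIP1, -0.11 to 0.17 for TP53I3 and -0.11 to 0.061 for ZMAT3.

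The letters a, b and c pair libraries by name only: deviations from the group means correlated at 0.13 for a, -0.05 for b and 0.20 for c, and not every library correlated best with its own letter. The replicate block gave 928 calls over all genes, 3 among the 33 p53 genes (CDKN1A, BTG2 and TRIAP1), 6 among the other targets and 9 among the p21-DREAM targets. The recovered depth of at most 207 reads for BBC3, 146 for PHLDA3 and 135 for BTG2 limits the precision of these genes, and TP73, EDA2R and SPATA18, with at most 13 reads in a library, were tested only with no filter, where none passed.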
